A study of Mus musculus with 14 samples.

Results

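The oocyte-specific genes examined here are 38 of the 21853 genes in the table, chosen by name from what is known of the mouse oocyte, with no measured value in the rule. They code for 3 zona pellucida proteins, 2 secreted ligands, 7 transcription factors, 5 proteins of the subcortical maternal complex, 4 further NLRP proteins, 8 proteins that act on mRNA, 3 nuclear proteins, 3 fertilization or secreted proteins and 3 proteins of survival and signalling. RNA-seq was done on ovaries and uteruses of female C57BL/6J mice that were 28 weeks old when they were divided into groups. Their age at tissue collection is not stated. The OC group (old control, n = 3) received saline and the OT group (old treatment, n = 4) received AMSC-CM, the medium conditioned by mesenchymal stem cells of the human amniotic membrane, through the tail vein, 6 times at intervals of 4 days and at 1 µL per g. The medium was pooled from the cells of 3 donors. All mice, OC included, had been given PMSG and then hCG, gonadotropins that drive follicle growth and ovulation, at 10 IU each and 48 h apart before the treatment, so no group shows an ovary without hormone priming. Total RNA of the tissue was sequenced after removal of rRNA, with no isolation of oocytes.

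The oocyte stores the RNA and protein that the egg and the early embryo use before the embryonic genome becomes active. In primordial follicles a first set of transcription factors, among them FIGLA, NOBOX, SOHLH1, SOHLH2 and LHX8, starts the oocyte programme. The growing oocyte then builds the zona pellucida around itself, secretes GDF9 and BMP15 that act on the surrounding granulosa cells, and stores maternal-effect proteins and dormant mRNA. The number of follicles falls with age, and in a bulk library fewer oocytes and less RNA per oocyte cannot be told apart.

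Values are FPKM, which divide a gene's fragments by its transcript length and by the mapped fragments of its library, so levels of different genes can be compared per length. Fold changes are OT minus OC on the log2(FPKM + 0.1) scale, which understates changes of genes near 0.1 FPKM. They were tested with limma where the mean over the 7 libraries of a tissue reached 0.5 FPKM, which 29 of the 38 genes passed in the ovary and 4 in the uterus. A gene was called when it changed 2 times or more with an unadjusted p not above 0.05. The depth of the libraries is unknown, and their relative depth, read from the steps between low values, lay between 0.859 and 1.18 of that of the OC1 ovary in the ovaries and between 0.79 and 1 of that of the OC1 uterus in the uteruses. Fshr, the follicle-stimulating hormone receptor of granulosa cells, was between 1.26 and 4.30 FPKM in the ovaries and at 0 in all 7 uteruses. It belongs to a list of 12 granulosa markers that was not absent from the uterus. There 9 of the 12 reached a mean of 0.5 FPKM, and the list summed to 127 to 196 FPKM. A pair of ovary libraries stood apart in their granulosa markers. The 12 markers summed to 663 FPKM in OC2 and 652 FPKM in OT2, against 975 to 1490 FPKM in the other 5 ovaries. OT2 also had the highest B cell markers, with a sum of 20.9 FPKM against 1.53 to 3.86 FPKM in the other ovaries.

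In the ovaries, 1 of the 29 tested oocyte-specific genes was called between OT and OC. Oosp2, which codes for a protein secreted by the oocyte, was lower in the OT group, and no oocyte-specific gene was called higher. Oosp2 passed the filter only through the OC group, with a mean of 0.149 FPKM in the OT group, so its call and the filter are not independent. Over all 14415 genes tested in the ovary, 0.0832% were called lower and 0.368% were called higher. At an unadjusted p of at most 0.05 alone the count was again 1 of 29, beside 4.51% of all tested genes. After Benjamini-Hochberg adjustment over all tested genes, 0 of the 29 genes were under 0.05 in limma, and the share over all tested genes was 0.0%. The adjusted p by limma was at least 0.997 for each of the 29 genes. The lowest OT value was below the highest OC value and the highest OT value above the lowest OC value for every one of the 29 genes, while over all tested genes the OT values lay wholly above the OC values in 2.78% and wholly below in 3.13%.

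**Figure D1:**
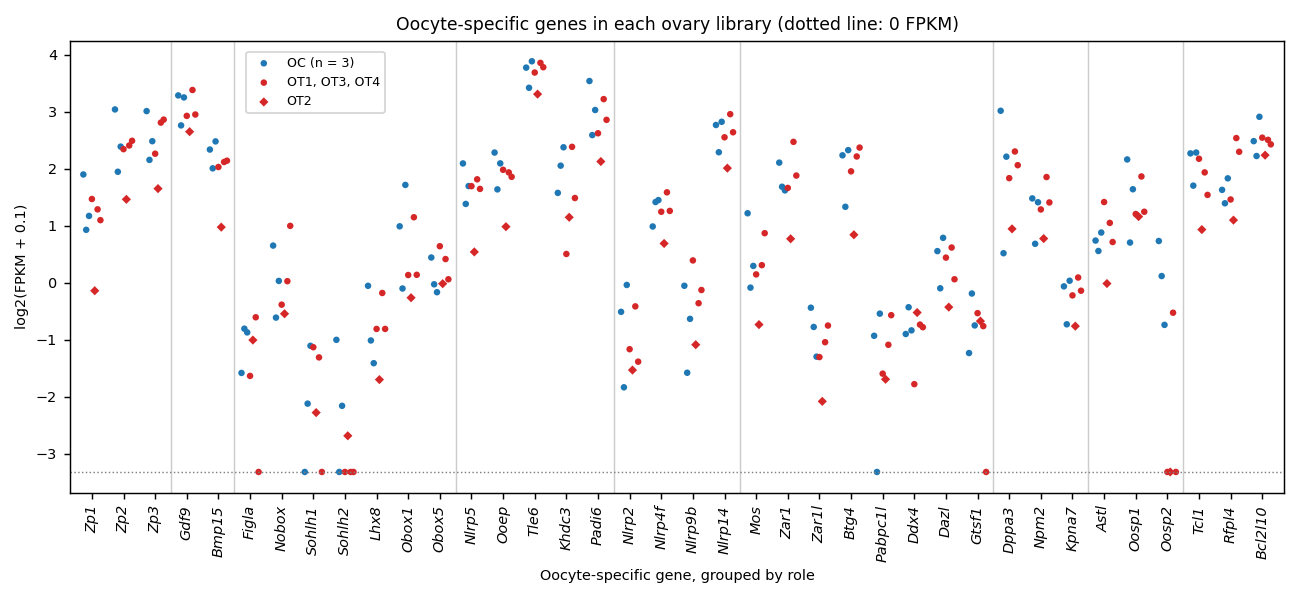
Level of each of the 38 oocyte-specific genes in each ovary library, as log2(FPKM + 0.1), in the order of their roles. Blue points are the 3 OC libraries, red points the OT libraries OT1, OT3 and OT4, red diamonds OT2, and the dotted line marks 0 FPKM. Tle6 had the highest mean and Sohlh2 the lowest, the OT2 diamond was often the lowest point of a gene, and OC and OT points overlapped for every gene.

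The 38 genes ranged widely in level. Tle6 had the highest mean over the 7 ovaries, 12.8 FPKM, followed by Gdf9 with 8.21, Padi6 with 7.47, Nlrp14 with 6.01 and Zp3 with 5.67 FPKM. At the other end stood Figla, Sohlh1 and Sohlh2, factors of the primordial follicle, with means of 0.333, 0.18 and 0.0826 FPKM. Lhx8 and Nobox, also named among these factors, had means of 0.495 and 1.00 FPKM. Of the 38 genes, 32 were above 0 in every ovary, 26 had a mean of at least 1 FPKM and 19 were at 1 FPKM or more in every ovary. The 9 genes below the filter were Figla, Sohlh1, Sohlh2, Lhx8, Nlrp2, Zar1l, Pabpc1l, Ddx4 and Gtsf1, and for these the values are given with no test.

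The zona pellucida is the glycoprotein coat of the egg, and the 3 zona genes were expressed in every ovary. Zp1, whose product cross-links the zona filaments, was 3.64, 1.8 and 2.16 FPKM in the OC ovaries and 2.67, 0.808, 2.34 and 2.04 FPKM in the OT ovaries. Zp2, whose product is bound by sperm and is cleaved after fertilization, was 8.14, 3.76 and 5.14 FPKM in the OC ovaries and 4.98, 2.66, 5.21 and 5.53 FPKM in the OT ovaries. Zp3, the partner of ZP2 in the filaments, was 7.98, 4.36 and 5.5 FPKM in the OC ovaries and 4.71, 3.04, 6.92 and 7.18 FPKM in the OT ovaries. For each of the 3 genes OC1 was the highest and OT2 the lowest library, and the other OT libraries lay among the OC values. None was called, with log2 fold change -0.41, standard error 0.41, 95% interval -1.34 to 0.53 for Zp1. For Zp2 the log2 fold change was -0.28 (95% interval -1.001 to 0.44) and for Zp3 it was -0.15 (-0.88 to 0.57). Each interval holds 0, and those of Zp1 and Zp2 reach a fall to 50% of the OC level or lower.

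GDF9 and BMP15 are growth factors of the TGF-beta family by which the oocyte acts on granulosa and cumulus cells. Gdf9 was 9.67, 6.69 and 9.44 FPKM in the OC ovaries and 7.52, 6.19, 10.3 and 7.65 FPKM in the OT ovaries. The OC group had a mean of 8.6 ± 1.66 FPKM (SD, n = 3) against 7.92 ± 1.74 FPKM (SD, n = 4) for the OT group, and OT3 was the highest ovary of all. Bmp15 was 4.96, 3.92 and 5.49 FPKM in the OC ovaries and 3.99, 1.87, 4.25 and 4.32 FPKM in the OT ovaries. Its OT1, OT3 and OT4 values lay close together and inside the OC range, and OT2 lay far below them. Neither ligand was called. Gdf9 had one of the narrower intervals among the tested genes (log2 fold change -0.12, standard error 0.19, 95% interval -0.56 to 0.32), and that of Bmp15 was wider (log2 fold change -0.46, standard error 0.29, 95% interval -1.13 to 0.21). Without OT2 the log2 fold change of Bmp15 was -0.18.

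The receptors and SMAD proteins through which GDF9 and BMP15 act on granulosa cells were measured as a list of 10 genes. All 10 passed the filter and 0 were called, and their median log2 fold change was -0.073, beside -0.011 over all tested genes. The fold changes lay between -0.17 for Bmpr1b, a receptor of BMP15, and 0.10 for Smad3, a SMAD that carries the GDF9 signal. Of 8 genes of the cumulus, the cells around the ovulating oocyte, 8 were tested and 0 were called. They lay between -0.58 for Has2, which makes the hyaluronan of the expanding cumulus, and 0.77 for Btc, an EGF-like ligand. Their median of -0.39 went with a median standard error of 0.50 over the list.

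The 7 transcription factors held the 3 genes with the lowest means, and 3 others, Nobox, Obox1 and Obox5, could be tested. Nobox, a homeobox factor needed for growth beyond the primordial follicle, was 1.47, 0.554 and 0.922 FPKM in the OC ovaries and 0.666, 0.586, 0.919 and 1.9 FPKM in the OT ovaries. Obox1 was 1.89, 0.833 and 3.19 FPKM in the OC ovaries and 0.999, 0.734, 2.12 and 1.0 FPKM in the OT ovaries. Obox5 was 1.26, 0.881 and 0.791 FPKM in the OC ovaries and 1.46, 0.889, 1.23 and 0.943 FPKM in the OT ovaries. Obox1 and Obox5 belong to a homeobox family of near-identical copies on chromosome 7, so that reads may be divided among copies and their levels are uncertain. The OT values of Nobox held both OT4, the highest ovary, and OT2, near the lowest. The difference between groups was 7.3e-05 for Nobox (95% interval -1.04 to 1.04), -0.58 for Obox1 (-1.66 to 0.51) and 0.19 for Obox5 (-0.46 to 0.84). Obox1 was called lower when OC2 was left out, with a log2 fold change of -1.06.

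The other 4 factors were below the filter. Figla, a basic helix-loop-helix factor that activates the zona genes, was 0.234, 0.472 and 0.447 FPKM in the OC ovaries and 0.222, 0.398, 0.557 and 0 FPKM in the OT ovaries. Lhx8, a LIM homeobox factor, was 0.863, 0.395 and 0.276 FPKM in the OC ovaries and 0.47, 0.208, 0.783 and 0.47 FPKM in the OT ovaries. Both were present in all 3 OC ovaries, and Figla was listed at 0 in OT4. Sohlh1, a helix-loop-helix factor of early follicles, was 0, 0.13 and 0.364 FPKM in the OC ovaries and 0.356, 0.106, 0.303 and 0 FPKM in the OT ovaries. Its partner Sohlh2 was 0.399, 0 and 0.124 FPKM in the OC ovaries and 0, 0.0553, 0 and 0 FPKM in the OT ovaries. The OC and OT values overlapped for each of the 4 genes, and differences between the groups were not tested.

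FIGLA binds an E-box and NOBOX binds a short homeobox element, so promoter sequences of the 38 genes were searched for such letters. RefSeq promoter windows of build GRCm38.p6 (250 bases before to 50 bases after the start) were matched by symbol for 30 of the 38 genes, in 33 windows. Bcl2l10, Dppa3, Gdf9, Mos, Nlrp14, Npm2, Zp1 and Zp2 had no matched window and were not searched. The E-box has the general form CANNTG, and only CACCTG, on either strand, was searched here as E-box letters. Whether CACCTG is the form that FIGLA binds in these genes was not tested. These letters stood in 15 of 33 windows (45.5%), against 20.2% of all 32851 windows. Other E-boxes were neither counted nor marked below, among them cacgtg in Zp3 and cagctg in Oosp2. The letters TAATTG or TAATTA, on either strand, stood in 6 of 33 windows (18.2%), against 12.4% of all windows. TATAAA, also on either strand, stood in 4 of 33 windows (12.1%), against 13.6%. TAATTA reads the same on both strands, and no set of letters is contained in another. A match describes the letters only, not a bound site, and a window without a match says nothing about a factor. The 250 bases before the start are shown for a zona gene, a maternal complex gene and a factor gene with E-box letters, for a ligand gene with homeobox letters, and for the called gene, each read 5′ to 3′ on the gene's strand with those letters in capitals.
Zp3, chr5:135979855-135980104, plus strand, E-box letters from 55 bases before the start: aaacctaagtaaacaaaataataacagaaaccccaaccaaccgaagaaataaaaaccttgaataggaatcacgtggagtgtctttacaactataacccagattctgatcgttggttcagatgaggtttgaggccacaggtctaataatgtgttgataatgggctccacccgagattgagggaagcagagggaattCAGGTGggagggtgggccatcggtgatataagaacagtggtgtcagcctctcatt
Padi6, chr4:140742644-140742893, minus strand, E-box letters from 78 bases before the start: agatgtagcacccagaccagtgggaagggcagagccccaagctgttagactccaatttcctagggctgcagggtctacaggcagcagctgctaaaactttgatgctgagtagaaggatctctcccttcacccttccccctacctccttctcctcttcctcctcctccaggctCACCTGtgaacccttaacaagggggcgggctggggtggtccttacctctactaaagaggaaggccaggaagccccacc
Nobox, chr6:43309555-43309804, minus strand, E-box letters from 137 and 50 bases before the start: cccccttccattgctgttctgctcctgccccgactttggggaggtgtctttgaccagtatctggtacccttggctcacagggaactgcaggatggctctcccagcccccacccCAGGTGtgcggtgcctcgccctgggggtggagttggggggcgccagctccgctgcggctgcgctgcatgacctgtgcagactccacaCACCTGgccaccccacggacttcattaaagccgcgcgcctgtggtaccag
Bmp15, chrX:6320725-6320974, minus strand, homeobox letters from 225 bases before the start: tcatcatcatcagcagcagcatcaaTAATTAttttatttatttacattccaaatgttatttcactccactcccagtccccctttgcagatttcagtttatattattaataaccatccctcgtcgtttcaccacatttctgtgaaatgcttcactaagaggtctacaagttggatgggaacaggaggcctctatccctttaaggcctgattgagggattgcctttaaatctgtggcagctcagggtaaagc
Oosp2, chr19:11660560-11660809, minus strand, neither set of letters: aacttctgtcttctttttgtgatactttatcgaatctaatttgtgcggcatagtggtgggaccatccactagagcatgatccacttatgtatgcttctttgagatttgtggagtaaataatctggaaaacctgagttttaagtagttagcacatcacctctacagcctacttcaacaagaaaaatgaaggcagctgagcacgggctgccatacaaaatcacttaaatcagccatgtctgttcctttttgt

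The windows that held the E-box letters belonged to Astl, Btg4, Figla, Khdc3, Kpna7, Nlrp9b, Nobox, Oosp1, Pabpc1l, Padi6, Rfpl4, Sohlh1, Tcl1, Zar1 and Zp3. Among them were genes of high ovary level such as Padi6 and Zp3 and genes of low level such as Sohlh1. Homeobox letters were found for Bmp15, Nlrp5, Nlrp9b, Ooep, Padi6 and Zar1l, and in Padi6 they lay 9 bases after the start. CpG dinucleotides had a median of 5 per 300-base window over the 30 genes and 7 over all windows. Of the 30, a gene with several windows entered at its highest count, while the median over all windows counted each window. Among the 30 genes the largest number was 38, in the window of Ddx4, a gene of both male and female germ cells.

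The subcortical maternal complex lies under the membrane of the egg and is needed for the first cleavages of the embryo. Tle6, a co-repressor-like member of the complex, was 13.6, 10.6 and 14.7 FPKM in the OC ovaries and 12.8, 9.83, 14.4 and 13.7 FPKM in the OT ovaries. It was the most expressed of the 38 genes in every one of the 7 ovaries. Padi6, a peptidylarginine deiminase-like protein of the cytoplasmic lattices, was 11.5, 5.93 and 8.08 FPKM in the OC ovaries and 6.07, 4.27, 9.25 and 7.16 FPKM in the OT ovaries. Nlrp5, also called Mater, was 4.17, 2.51 and 3.14 FPKM in the OC ovaries and 3.14, 1.36, 3.42 and 3.03 FPKM in the OT ovaries. Ooep, also called Floped, was 4.78, 3.02 and 4.18 FPKM in the OC ovaries and 3.85, 1.88, 3.73 and 3.53 FPKM in the OT ovaries. OT2 was the lowest library for Tle6, Padi6, Nlrp5 and Ooep. Khdc3, also called Filia, was 2.89, 4.06 and 5.1 FPKM in the OC ovaries and 1.32, 2.12, 5.13 and 2.7 FPKM in the OT ovaries, and here OT1 was the lowest library. The differences were -0.034 for Tle6, -0.35 for Padi6, -0.30 for Nlrp5, -0.32 for Ooep and -0.62 for Khdc3, all 5 below 0 and none called. Without single libraries they ran from -0.58 (without OC2) to -0.10 (without OC1) for Padi6, from -0.47 (without OC2) to -0.0054 (without OT2) for Nlrp5, from -0.50 (without OC2) to -0.081 (without OT2) for Ooep and from -0.96 (without OT3) to -0.33 (without OT1) for Khdc3. Tle6 had the narrowest interval of the 29 genes (-0.39 to 0.33), which leaves out a change of 2 times in either direction, and that of Khdc3 reached from -1.55 to 0.30.

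The value of Khdc3 is uncertain. It shares 38.5% of its exonic bases with Gm20509 on the same strand, and Gm20509 was at 0.85 FPKM in the OT1 ovary, where Khdc3 was lowest, and at most 1.23e-05 FPKM in the other 6 ovaries. Whether fragments were moved between the overlapping genes was not tested.

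Of the 4 further Nlrp genes, which share the domain plan of Nlrp5, 3 were tested and 0 were called. Nlrp14 ranged over 3.93 to 7.68 FPKM with a log2 fold change of -0.087 (95% interval -0.61 to 0.43), and Nlrp4f over 1.51 to 2.91 FPKM with -0.089 (-0.65 to 0.47). Nlrp9b ranged over 0.234 to 1.21 FPKM and had the highest fold change of the 29 genes, 0.46, with an interval from -0.66 to 1.58. Nlrp2 was below the filter at 0.18 to 0.874 FPKM. Nlrp2, Nlrp4f and Nlrp9b have close copies in the genome, and Nlrp9b shares 3.7% of its exonic bases with a pseudogene, so their levels are uncertain. Chromosome 7 carries Nlrp2, Nlrp5, Nlrp9b and Nlrp14 together with Zp2, Obox1, Obox5 and Rfpl4, 8 of the 38 genes.

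The mature oocyte does not transcribe and controls its stored mRNA instead, and 8 of the genes act there. Btg4, an adaptor that brings the deadenylase to maternal mRNA, ranged over 1.69 to 5.08 FPKM, and Zar1, which binds stored mRNA, over 1.61 to 5.46 FPKM. Mos, the kinase that holds the egg in metaphase, ranged over 0.501 to 2.23 FPKM, and Dazl, an activator of translation, over 0.643 to 1.63 FPKM. OT2 was the lowest ovary for all 4 of these genes. Their log2 fold changes were -0.12 for Btg4 (95% interval -1.01 to 0.77), -0.11 for Zar1 (-0.92 to 0.71), -0.33 for Mos (-1.34 to 0.68) and -0.24 for Dazl (-1.02 to 0.54). None of the 4 was called. Below the filter were Zar1l at 0.136 to 0.638 FPKM, Pabpc1l, a poly(A)-binding protein, at 0 to 0.587 FPKM, Ddx4, a germ cell RNA helicase, at 0.191 to 0.642 FPKM, and Gtsf1, a protein of the piRNA pathway, at 0 to 0.777 FPKM.

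The proteins that work with BTG4 and MOS are made in most cells. All 11 genes of this list, deadenylase subunits and partners of the MOS kinase pathway, were tested and 0 were called, with a median log2 fold change of -0.032. The lowest was Cnot7, a catalytic deadenylase subunit, at -0.20 (unadjusted p = 0.0155, adjusted p = 0.997 by limma), and the highest was Cnot6l, another catalytic subunit, at 0.092. A gene list of the meiotic chromosome axis and recombination had 2 of its 12 genes above the filter in the ovary, Rec8 at 0.056 and Syce2 at 0.15.

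The 3 nuclear genes had no call. Dppa3, which protects the maternal genome from demethylation after fertilization, varied most among them, with 8.01, 1.33 and 4.54 FPKM in the OC ovaries and 3.47, 1.83, 4.84 and 4.08 FPKM in the OT ovaries. OC1 and OC2 were the highest and the lowest of all 7 ovaries, so that the spread within the OC group exceeded the difference between groups (log2 fold change -0.13, standard error 0.56, 95% interval -1.40 to 1.14). Npm2, a histone chaperone, ranged over 1.51 to 3.52 FPKM with a log2 fold change of 0.14 (-0.54 to 0.82). Kpna7, an importin of the egg, ranged over 0.49 to 0.966 FPKM with -0.0054 (-0.79 to 0.78).

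Oosp2 was the gene that was called, and its values were low. The levels were 1.56, 0.985 and 0.499 FPKM in the OC ovaries and 0, 0, 0.595 and 0 FPKM in the OT ovaries. It was present in all 3 OC ovaries and listed at 0 in OT1, OT2 and OT4, while OT3 lay above OC3, so the groups overlapped. The OC group had a mean of 1.02 ± 0.532 FPKM (SD, n = 3) against 0.149 ± 0.297 FPKM (SD, n = 4) for the OT group. The log2 fold change was -2.66 (standard error 0.81, 95% interval -4.51 to -0.81, unadjusted p = 0.0102, adjusted p = 0.997 by limma). Its mean over the 7 ovaries, 0.52 FPKM, passed the filter only through the OC group. With a pseudocount of 1 in place of 0.1 the log2 fold change was -0.81 and the gene was no longer called, with a pseudocount of 0.01 it was -5.05, and the gene was not tested with a filter at a mean of 1 FPKM. It was also not called when OC2 and OT2 were left out, an alternative chosen after seeing the data, where the log2 fold change was -2.39 in 5 libraries and the unadjusted p by limma was 0.0574.

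The adipocyte markers summed to higher values in the ovaries in which Oosp2 was listed at 0 than in the others. All 10 were tested and none was at 0 in an ovary. Of the 10, 5 were called higher in the OT group (Adipoq, Cidec, Fabp4, Lep and Adrb3), beside 0.368% of all tested genes. The calls are at an unadjusted p, and the adjusted p by limma was 0.997 for each of the 5. The 10 markers summed to 220 to 331 FPKM in the OC ovaries, to 266 FPKM in OT3, and to 1863, 1391 and 462 FPKM in OT1, OT2 and OT4, the ovaries in which Oosp2 was listed at 0. The part of the adipocyte markers in the Oosp2 result was not tested.

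Oosp1, the neighbour of Oosp2 on the minus strand of chromosome 19 at a gap of 6900 bases, was above 0 in every ovary. Oosp1 lies at chr19:11667460-11691150 and Oosp2 at chr19:11647279-11660559 in GRCm38. Oosp1 was 4.38, 1.53 and 3.02 FPKM in the OC ovaries and 2.21, 2.14, 3.55 and 2.27 FPKM in the OT ovaries, with all 7 ovaries above 1 FPKM. Its log2 fold change was -0.13 (95% interval -0.91 to 0.64). OT1, OT2 and OT4, which had no listed Oosp2, lay between 2.14 and 2.27 FPKM for Oosp1. The difference between the 2 genes was not tested. Astl, the ovastacin protease that cleaves ZP2 after fertilization, ranged over 0.891 to 2.57 FPKM with a log2 fold change of 0.066 (-0.69 to 0.82).

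Of the 3 genes of survival and signalling, Bcl2l10, a BCL2 family member of the oocyte, varied least, over 4.58 to 7.43 FPKM, with a log2 fold change of -0.11 (95% interval -0.50 to 0.28). Tcl1, a cofactor of AKT kinase, ranged over 1.81 to 4.78 FPKM with -0.44 (-1.12 to 0.24). Rfpl4, a RING finger-like protein, ranged over 2.04 to 5.72 FPKM with 0.23 (-0.55 to 1.01), and its highest ovaries were OT3 and OT4. Tcl1 and Rfpl4 have close copies in the genome, so their levels are uncertain.

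**Figure D2:**
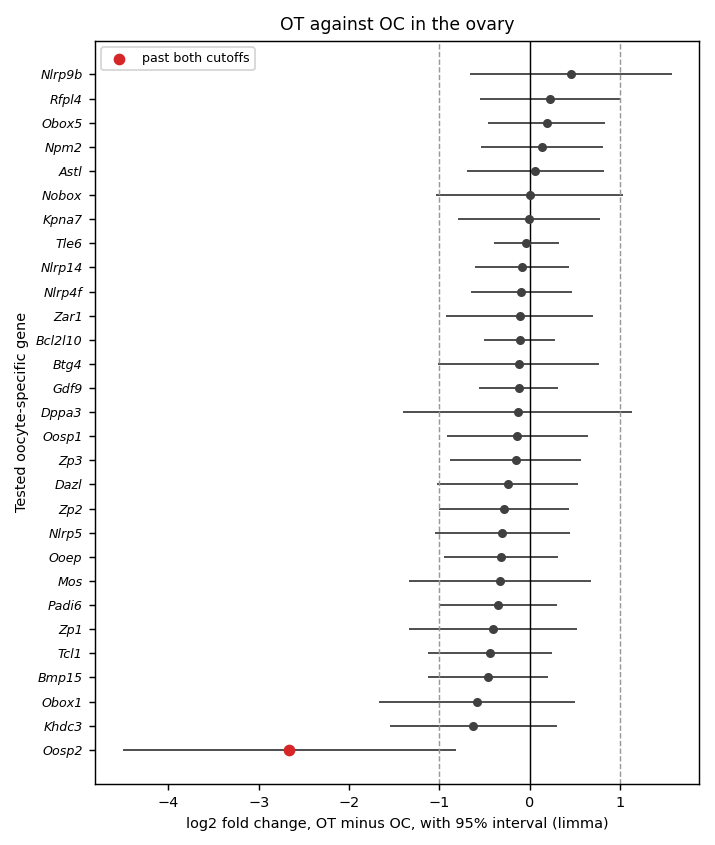
Log2 fold change (OT minus OC, limma, on log2(FPKM + 0.1)) of the 29 tested oocyte-specific genes in the ovary, with 95% intervals as horizontal lines. Dashed lines mark a fold change of 2 in either direction and the red point is Oosp2, the gene past both cutoffs. The intervals of the other 28 genes cross 0.

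Taken as a list, 23 of the 29 tested genes had a log2 fold change below 0 and 6 above 0, beside 53.4% below 0 over all tested genes. The median was -0.13, against -0.011 over all tested genes, and the median standard error was 0.33, against 0.13. The within-group spread had a median SD of 0.51 log2 units over the 29 genes and 0.17 over all tested genes. The 95% interval lay inside a change of 2 times in either direction for 14 genes and reached past it for 15. The count of genes below 0 moved with single libraries. It was 14 of 29 without OC1, with a median of 0.0060, and 15 of 29 without OT2, with a median of -0.0054. Without OC2 it was 26 of 29, with a median of -0.44. Without both OC2 and OT2, chosen after seeing the data, it was 22 of 29, with a median of -0.18.

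The genes varied together from library to library. The 38 genes summed to 134, 84.3 and 122 FPKM in OC1, OC2 and OC3 and to 99.4, 64.4, 128 and 108 FPKM in OT1 to OT4. The median difference of the 29 tested genes from their OC means was 0.28, -0.38 and 0.15 log2 units in the OC ovaries and -0.075, -0.85, 0.26 and -0.022 in the OT ovaries. OT2 was below the OC mean for all 29 genes and was the lowest ovary for 20 of them, where OT2 was the lowest ovary for 16.6% of all tested genes. OC2 was below the OC mean for 26 genes and the lowest ovary for 6, where it was the lowest for 14.6% of all tested genes. The highest ovary was OC1 for 10 genes, OT3 for 8 and OC3 for 6.

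**Figure D3:**
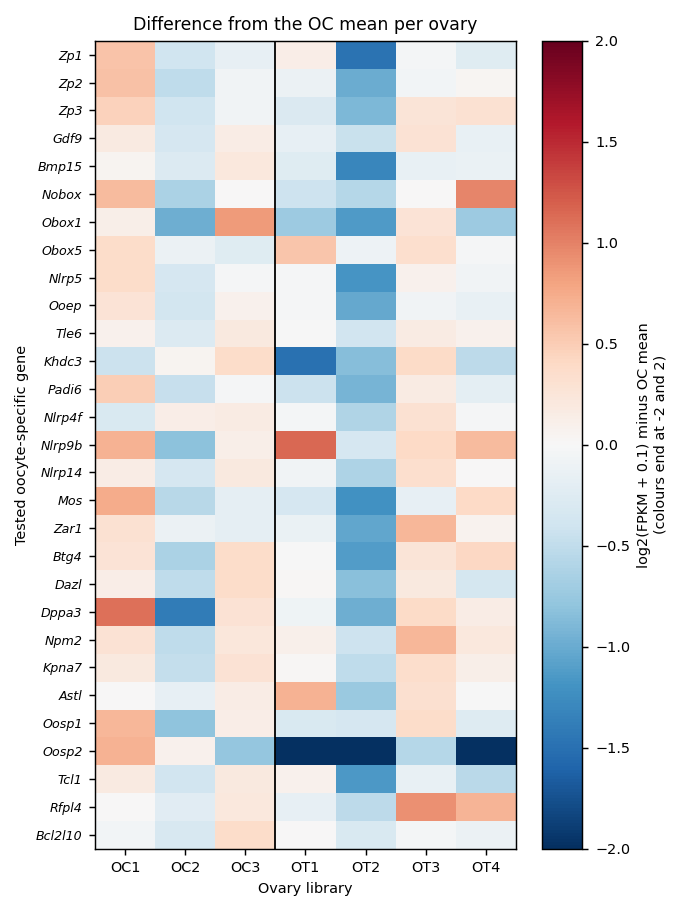
Difference of each ovary library from the OC mean, in log2(FPKM + 0.1), for the 29 tested oocyte-specific genes (rows). Red is above and blue below the OC mean, colours end at -2 and 2, and the vertical line divides OC from OT. The OT2 column is blue for all 29 genes and the OC2 column for 26, while OC1 and OT3 are mostly red.

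Oocyte genes outside the 38 were examined as a second list of 34. This list was not restricted to the ovary. It summed to 78.9 to 110 FPKM in the ovaries and to 70.6 to 81.5 FPKM in the uteruses, where 10 of the 34 genes passed the filter. Of the 34 genes, 22 were tested in the ovary, 0 were called and 19 were below 0, with a median log2 fold change of -0.096. The lowest was Omt2b at -0.70 and the highest Bnc1 at 0.39. OT2 was again the lowest ovary, for 12 of the 22, and the median differences from the OC means were -0.54 in OT2 and -0.44 in OC2.

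Granulosa markers were low, by their median, in the same 2 ovaries. OC2 was below the OC mean for all 12 markers and OT2 for 9 of the 12. The median difference of the 12 markers from the OC means was -0.95 in OT2 and -0.60 in OC2, and between -0.014 and 0.45 in the other 5 ovaries. None of the 12 was called, and their log2 fold changes lay between -0.32 for Inhba, an inhibin and activin subunit, and 0.34 for Amh, the anti-Müllerian hormone of small growing follicles. The median difference over the list lay between -0.19 and 0.23 in all 7 ovaries for the 6 theca markers and between -0.28 and 0.062 for the 6 luteal markers, with 0 called in either list, and single markers varied more. Theca fold changes ran from -0.95 for Insl3 to 0.064 for Aldh1a1, and luteal ones from -0.97 for Akr1c18 to 0.027 for Lhcgr. The 7 stromal markers (from -0.16 for Col1a1 to 0.086 for Dcn) and the 8 oviduct markers (from -0.29 for Pax8 to 0.15 for Sec14l3) had 0 called as well. B cell markers, of which 4 of 7 were tested and 0 called, had a median difference from the OC means of 3.23 log2 units in OT2 and between -0.21 and 0.48 in the other 6. For the 8 cumulus genes the median difference was lowest in OT1, at -0.73, and was -0.39 in OT2 and in OC2. The part of these cell types in the values of the oocyte-specific genes was not tested.

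**Figure D4:**
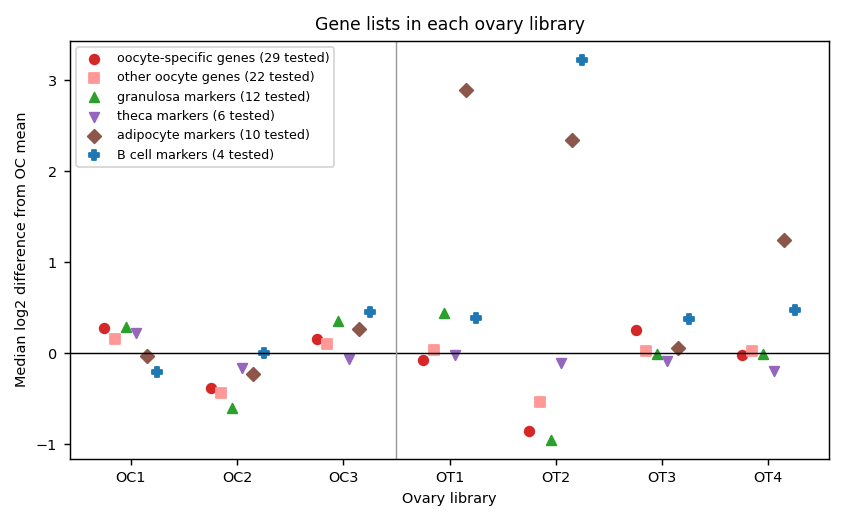
Median difference from the OC mean, in log2(FPKM + 0.1), of gene lists in each ovary library. Each point is a list's median over its tested genes. OT2 was lowest and OC2 next for the oocyte-specific genes (-0.85 and -0.38) and for granulosa markers (-0.95 and -0.60), and OT2 was highest for B cell markers (3.23).

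The uterus holds no oocytes, and its libraries show how far the 38 genes are restricted to the ovary. Of the 38 genes, 35 were higher in the ovary by limma at a Benjamini-Hochberg adjusted p under 0.05, where 24.2% of the 18473 genes fitted were. Every ovary lay above every uterus for 29 of the 38 genes, against 10.1% of all genes of the table. In all 7 uteruses 16 of the 38 were listed at 0, beside 19.6% of all genes, and 35 stayed below 1 FPKM in each uterus. Zp3, Nlrp14, Zar1, Btg4, Tcl1 and Rfpl4 were at 1.61 FPKM or more in every ovary and listed at 0 in every uterus. Padi6 was above 0 in only 1 uterus, at 0.057 FPKM.

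The other 3 genes were not past the threshold. For Ddx4 the data went against the name of the list, with a mean of 0.473 FPKM over the ovaries and 0.487 FPKM over the uteruses. It was 0.436, 0.642 and 0.46 FPKM in the OC ovaries and 0.191, 0.596, 0.501 and 0.482 FPKM in the OT ovaries. In the uterus it was 0.416, 0.29 and 0.407 FPKM in the OC uteruses and 0.499, 0.802, 0.639 and 0.352 FPKM in the OT uteruses. The log2 difference between ovary and uterus was 0.019 (95% interval -0.48 to 0.52, adjusted p = 0.956 by limma). Sohlh2 (log2 difference 0.44, -0.23 to 1.11) and Pabpc1l (0.97, -0.12 to 2.06) were low in both tissues.

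**Figure D5:**
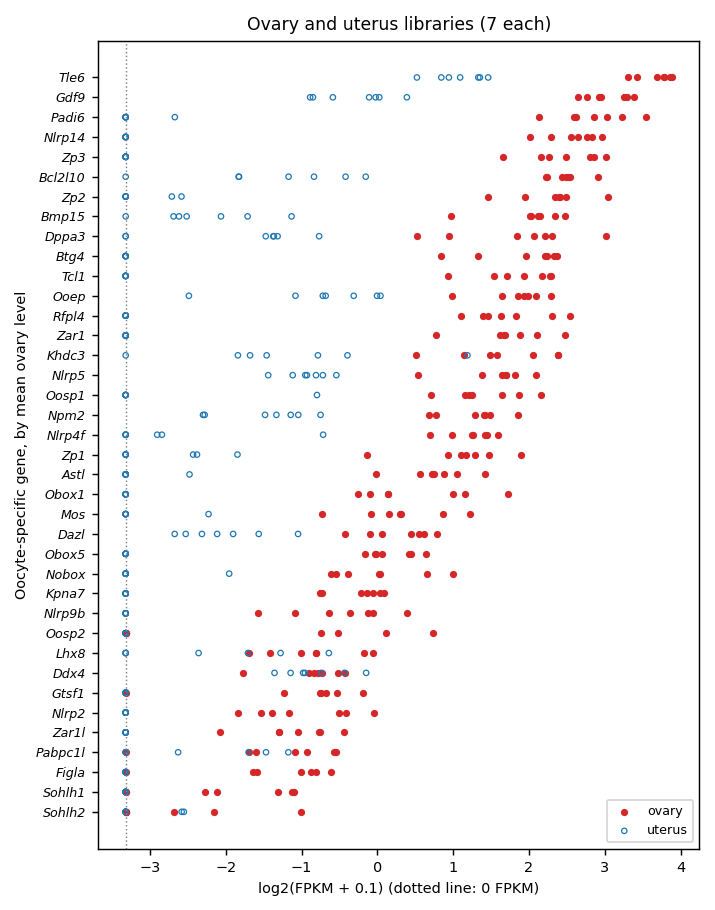
Level of each of the 38 oocyte-specific genes, as log2(FPKM + 0.1), in the 7 ovary libraries (filled red) and the 7 uterus libraries (open blue), ordered by mean ovary level. The dotted line marks 0 FPKM. Red and blue points are apart for 29 genes and overlap for the other 9, Ddx4 among them.

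Only 4 of the 38 genes had a mean of at least 0.5 FPKM in the uterus, and 3 of them belong to the subcortical maternal complex. Tle6 was 1.82, 2.03 and 1.33 FPKM in the OC uteruses and 1.69, 2.65, 2.45 and 2.42 FPKM in the OT uteruses. Gdf9 was 0.884, 0.441 and 0.566 FPKM in the OC uteruses and 0.454, 0.917, 1.21 and 0.827 FPKM in the OT uteruses. Ooep was 0.523, 0.928 and 0.373 FPKM in the OC uteruses and 0.896, 0.507, 0.705 and 0.0783 FPKM in the OT uteruses. These 3 genes were above 0 in every uterus, at levels below those of every ovary, and so was Nlrp5, another complex gene, below the filter at 0.268 to 0.587 FPKM. Khdc3 was 0.66, 0 and 0.179 FPKM in the OC uteruses and 0.48, 0.212, 2.18 and 0.263 FPKM in the OT uteruses, and its OT3 uterus lay above the OT1 and OT2 ovaries. Khdc3 passed the filter only through the OT group, with a mean of 0.783 FPKM there and 0.28 FPKM in the OC group. The OT median was 0.372 FPKM, below the filter, and OT3 was the highest uterus. Gm20509, which overlaps Khdc3, was at 0.261 FPKM in that uterus and at most 0.00738 FPKM in the other 6.

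Between OT and OC, 0 of these 4 genes were called in the uterus, where 2.23% of 14151 tested genes were called higher and 0.664% lower. At an unadjusted p of at most 0.05 by limma the count was also 0 of 4, beside 8.2% of all tested genes. The OT values lay wholly above the OC values for 0 of the 4 genes and wholly below for 0, against 6.46% and 5.48% of all tested genes, and 1 of the 4 fold changes was below 0, against 48.9%. The fold changes were log2 fold change 0.40, standard error 0.26, 95% interval -0.21 to 0.998 for Tle6, log2 fold change 0.36, standard error 0.44, 95% interval -0.65 to 1.38 for Gdf9 and log2 fold change -0.31, standard error 0.69, 95% interval -1.89 to 1.28 for Ooep. For Khdc3 the log2 fold change was 1.17 (standard error 0.95, 95% interval -1.03 to 3.36), and it ran from 0.43 without OC2 to 1.90 without OC1. Because Khdc3 passed the filter only through the OT group, its test and the filter are not independent. The adjusted p by limma lay between 0.632 and 0.879 over the 4 genes. Lhx8, below the filter, was 0.312, 0.541 and 0.0948 FPKM in the OC uteruses and 0, 0, 0 and 0.206 FPKM in the OT uteruses. It was above 0 in all 3 OC uteruses and in 1 of the 4 OT uteruses, and was called lower when no filter was used.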

How the data were processed

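RNA-seq libraries of 3 OC and 4 OT mice, an ovary and a uterus library each (14 libraries, 4 groups, assigned by their labels) were analysed. The authors made stranded, rRNA-depleted libraries from 700 ng of total RNA, trimmed reads with Skewer 0.2.2, mapped them to mm10 with STAR 2.5 and estimated FPKM with Cufflinks 2.2.1. The deposited values were these FPKM, with no replicates pooled. FPKM carries no counts, so the depth is unknown and no count model was used. Cuffdiff, the authors' test, needs the reads.

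All 38 symbols were matched through GENCODE M21 to identifiers of the table. The 38 genes and all other lists were chosen with earlier results of these data known. For OC against OT in a tissue, limma 3.58.1 (R 4.3.3, eBayes with a trend) was run on log2(FPKM + 0.1) of all genes whose mean there reached 0.5 FPKM. Adjusted p were by Benjamini-Hochberg over all tested genes. Ovary and uterus were compared in 1 fit of 14 libraries with no filter on the mean. Tables and figures were made in Python 3.11.15 with pandas 2.3.3, numpy 2.4.6 and matplotlib 3.10.9. The fitting code was tested on simulated data.

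Values in every ovary are given for the zona, ligand, transcription factor and maternal complex genes and for genes with a fold change of at least 2 or an unadjusted p of at most 0.05 in a tissue, or a mean of at least 0.5 FPKM in the uterus. Dppa3, Oosp1 and, in both tissues, Ddx4 were added to these after their values were seen. Genes of other lists are named where called or at the ends of a list. Other pseudocounts, filters, scalings, a robust fit, a replicate block and leaving out each library were tried. Protein sequences were not used here.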

Additional observations from a re-analysis of the deposited data

Results flagged for a closer look

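In groups of 4 libraries, a value was marked when its gap to the nearest other library was a larger share of the group's range than Dixon's critical value, which chance passes in about 5% of groups. This was tried on 41 groups and marked 7. In the OT ovaries, OT2 was low for Bmp15 (1.87 FPKM) and for Ooep (1.88 FPKM), and OT3 was high for Oosp1 (3.55 FPKM) and for Oosp2 (0.595 FPKM), where the other 3 OT ovaries were listed at 0. In the OT uteruses, OT3 was high for Khdc3 (2.18 FPKM). The B cell markers of OT2 had a median difference from the OC mean of 3.23 log2 units in the ovary and 3.75 log2 units in the uterus, both far above the other OT libraries.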

How the results depend on the processing

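The call of Oosp2 in the ovary depended on the handling of low values. The count of called oocyte-specific genes was 0 with a pseudocount of 1, 0 with a filter at a mean of 1 FPKM, where Oosp2 was not tested, and 0 without OC2 and OT2 (chosen after seeing the data), where the log2 fold change of Oosp2 was -2.39, near its -2.66 in all 7 ovaries, with an unadjusted p of 0.0574 by limma from 5 libraries. The count ran from 1 to 2 when each library was left out, with Obox1 as the added gene without OC2. In the uterus it was 1 (Lhx8) with no filter and 0 in the other settings. The median log2 fold change in the ovary ran from -0.44 without OC2 to 0.0060 without OC1. The count of genes higher in the ovary than in the uterus ran from 35 to 37 without single libraries (37 without the OC2 ovary, where Sohlh2 and Pabpc1l passed) and was 35 with the animal as a block.

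In the labels, same-numbered OC and OT libraries share only a number, and whether they share a batch is unknown. The correlations of their deviations were 0.331, 0.0448 and 0.0801 (ovary) and 0.0797, 0.0012 and -0.027 (uterus). OC and OT libraries of different numbers ran from -0.382 to 0.253 (ovary) and from -0.27 to 0.189 (uterus). In a fit blocked by replicate number, which drops OT4, 1 gene was called in the ovary (Oosp2, log2 fold change -2.43) and 0 in the uterus, and the median was -0.22. The block turned the sign for Nobox in the ovary (-0.32) and Ooep in the uterus (0.23).

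The sign also turned for Nobox with a pseudocount of 0.01 (-0.0019), for Kpna7 after rescaling to TPM (0.0079), and without OC2 and OT2 for Nobox (-0.13), Nlrp4f (0.15) and Zar1 (0.14). Without single libraries it turned for the following genes in the ovary, with these ranges of the log2 fold change: Zp2 -0.54 to 0.0087, Zp3 -0.35 to 0.095, Nobox -0.32 to 0.31, Tle6 -0.17 to 0.082, Nlrp4f -0.24 to 0.080, Nlrp14 -0.26 to 0.090, Mos -0.61 to 0.043, Zar1 -0.37 to 0.20, Btg4 -0.44 to 0.22, Dppa3 -0.83 to 0.42, Npm2 -0.12 to 0.32, Kpna7 -0.24 to 0.16, Astl -0.14 to 0.33, Oosp1 -0.53 to 0.20 and Bcl2l10 -0.27 to 0.076. Single libraries also moved genes that kept their sign in the ovary: Zp1 -0.61 to -0.049, Gdf9 -0.29 to -0.012, Bmp15 -0.59 to -0.18, Obox1 -1.06 to -0.15, Obox5 0.067 to 0.37, Nlrp9b 0.048 to 0.81, Dazl -0.50 to -0.042, Tcl1 -0.63 to -0.20 and Rfpl4 0.00054 to 0.48. In the uterus Gdf9 ran from 0.17 to 0.60 and Tle6 from 0.23 to 0.53, Ooep ran from -0.60 to 0.23, and between tissues Ddx4 ran from -0.069 to 0.16. Except for Obox1 without OC2, none of these genes was called between OC and OT in these fits. The cause of the changes was not tested. Rescaling to TPM moved the median of all genes from 0.0099 to -0.13 in the uterus and from 0.021 to 0.23 between tissues. The depth is unknown, so no counting error could be given for low values.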
